A study of Mus musculus with 6 samples.

Results

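Antiviral interferon-stimulated genes were followed in microglia, the macrophages that reside in the brain, grown in culture from CD1 mice and given either a control treatment or extracellular vesicles (EVs), small membrane particles shed by cells. The 35 genes were taken by symbol from a list of antiviral effectors, sensors and regulators, and all 35 were found among the 48005 gene entries of the count tables. The vesicles had been collected by serial centrifugation from primary neural stem cells of the subventricular zone of CD1 mice. Each group held 3 samples (A, B and C), written here as Control and EV-treated. The labels give no genotype beyond the CD1 strain, no age, dose or duration of treatment, and do not say what the control cultures received. Nothing states that the 3 samples of a group are separate cultures or animals, so the spread behind each p-value may be technical.

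Type I interferons bind the receptor IFNAR1/IFNAR2, whose kinases JAK1 and TYK2 phosphorylate transcription factors of the STAT family. Together with IRF9, STAT proteins bind the interferon-stimulated response element (ISRE) in promoters of antiviral genes. The proteins made then detect viral RNA, block its translation or destroy it, cut short nucleotide supply, or hold virus particles at membranes. Microglia are known as a main responder to type I interferon in the infected and injured brain.

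The letters of the ISRE were found in some of these promoters and not in others. Of the 5 genes with the highest rises, Oasl1 and Isg20 had no match in their listed promoters. Shown first are 5 stretches that do hold matches, for the other 3 of those genes and for the Ifit3 and Ifit3b pair. Each is the 200 bases before the RefSeq transcription start (GRCm38.p6), read 5′ to 3′ on the strand of the gene, with matches to GAAANNGAAA, or to TTTCNNTTTC on the other strand, in capitals. They lie at chr4:156200819-156201018 (minus strand, Isg15), chr12:26456453-26456652 (minus strand, Rsad2), chr19:34640689-34640888 (plus strand, Ifit1), chr19:34583329-34583528 (plus strand, Ifit3) and chr19:34607757-34607956 (plus strand, Ifit3b).
Isg15: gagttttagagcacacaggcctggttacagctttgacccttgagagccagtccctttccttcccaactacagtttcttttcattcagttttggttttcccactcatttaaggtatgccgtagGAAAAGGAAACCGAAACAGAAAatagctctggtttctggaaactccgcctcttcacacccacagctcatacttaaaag
Rsad2: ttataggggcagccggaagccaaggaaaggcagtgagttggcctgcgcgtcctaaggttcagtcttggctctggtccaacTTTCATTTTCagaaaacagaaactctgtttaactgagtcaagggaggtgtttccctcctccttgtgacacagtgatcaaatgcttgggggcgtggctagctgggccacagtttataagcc
Ifit1: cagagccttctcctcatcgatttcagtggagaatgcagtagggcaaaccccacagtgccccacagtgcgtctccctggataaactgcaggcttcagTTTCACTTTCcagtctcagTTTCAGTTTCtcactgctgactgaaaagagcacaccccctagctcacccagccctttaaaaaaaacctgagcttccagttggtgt
Ifit3: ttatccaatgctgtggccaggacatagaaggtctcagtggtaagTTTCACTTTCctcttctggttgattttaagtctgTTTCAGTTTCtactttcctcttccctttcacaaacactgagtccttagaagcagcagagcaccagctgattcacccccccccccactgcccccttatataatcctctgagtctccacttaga
Ifit3b: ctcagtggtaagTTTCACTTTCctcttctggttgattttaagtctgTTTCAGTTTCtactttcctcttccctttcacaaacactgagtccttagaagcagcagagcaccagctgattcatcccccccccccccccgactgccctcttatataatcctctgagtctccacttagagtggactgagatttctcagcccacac
Isg15 held 3 overlapping matches, which began 78 to 66 bases before the start, and Rsad2 held 1, which began 120 bases before it. Ifit1 held 2 matches, and Ifit3 and Ifit3b each held 2. The Ifit3 and Ifit3b stretches were identical at 166 of the 168 aligned positions where both had a base (98.8%), and both matches lay in that shared stretch.

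Promoters of 300 bases (250 before to 50 after the start) were listed by RefSeq for 25 of the 35 genes, and these letters were found in 12 of the 25 (48.0%). Over all 27025 genes of that table, 3.99% had them. The letters of the GAS element, TTCNNNGAA, a binding sequence of STAT dimers, were in 9 of the 25 (36.0%, against 9.55% of all genes), and GGGNNNTTCC, a form of the NF-kB site, was in 6 (24.0%, against 6.31%). Both strands were searched and matches of different motifs could overlap. A match is a description of letters and was not taken as a bound site.

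RNA was measured as counts per exon bin, summed here per gene entry and compared between groups with edgeR, with p-values adjusted over all 16605 entries that passed the filter on low counts (call threshold 0.05). The sums came to 109744701 to 162544804 counts per library. Levels are in CPM (counts scaled to equal library totals, corrected by TMM), and levels of different genes are compared only as CPM per kilobase of exon. The correlation of log2 CPM across genes was 0.985 to 0.993 within groups and 0.870 to 0.878 between them. Summed CPM of 7 microglial and macrophage markers lay between 5056 and 5994 in control and ranged from 4254 up to 4451 in EV-treated libraries, with Csf1r, Itgam and Aif1 not called, Cd68, Ptprc and Tyrobp lower and Fcgr3 higher.

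The RNA of most antiviral genes was higher in EV-treated microglia. Of the 35 genes, all of which were tested, 29 rose and 2 fell, where 33.0% of all entries tested rose and 33.5% fell. The other 4 (Mx1, Samhd1, Ifi44 and Ifi35) were not called. The median log2 fold change was 1.42 over the 35 genes and -0.02 over all entries. Of the 35, 14 rose by a log2 of 2 or more, as did 11.0% of all entries, and 11 more rose by a log2 of 1 to 2. The groups did not overlap in 30 genes (71.3% of all entries), 28 of them higher (35.2% of all entries) and 2 lower (36.1% of all entries). Summed over the 35 genes, the level was 1941, 2335 and 2167 CPM in Control A, B and C and 8066, 9164 and 7022 CPM in EV-treated A, B and C. In bulk samples, fewer cells of a type and less RNA per cell cannot be told apart.

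**Figure D1:**
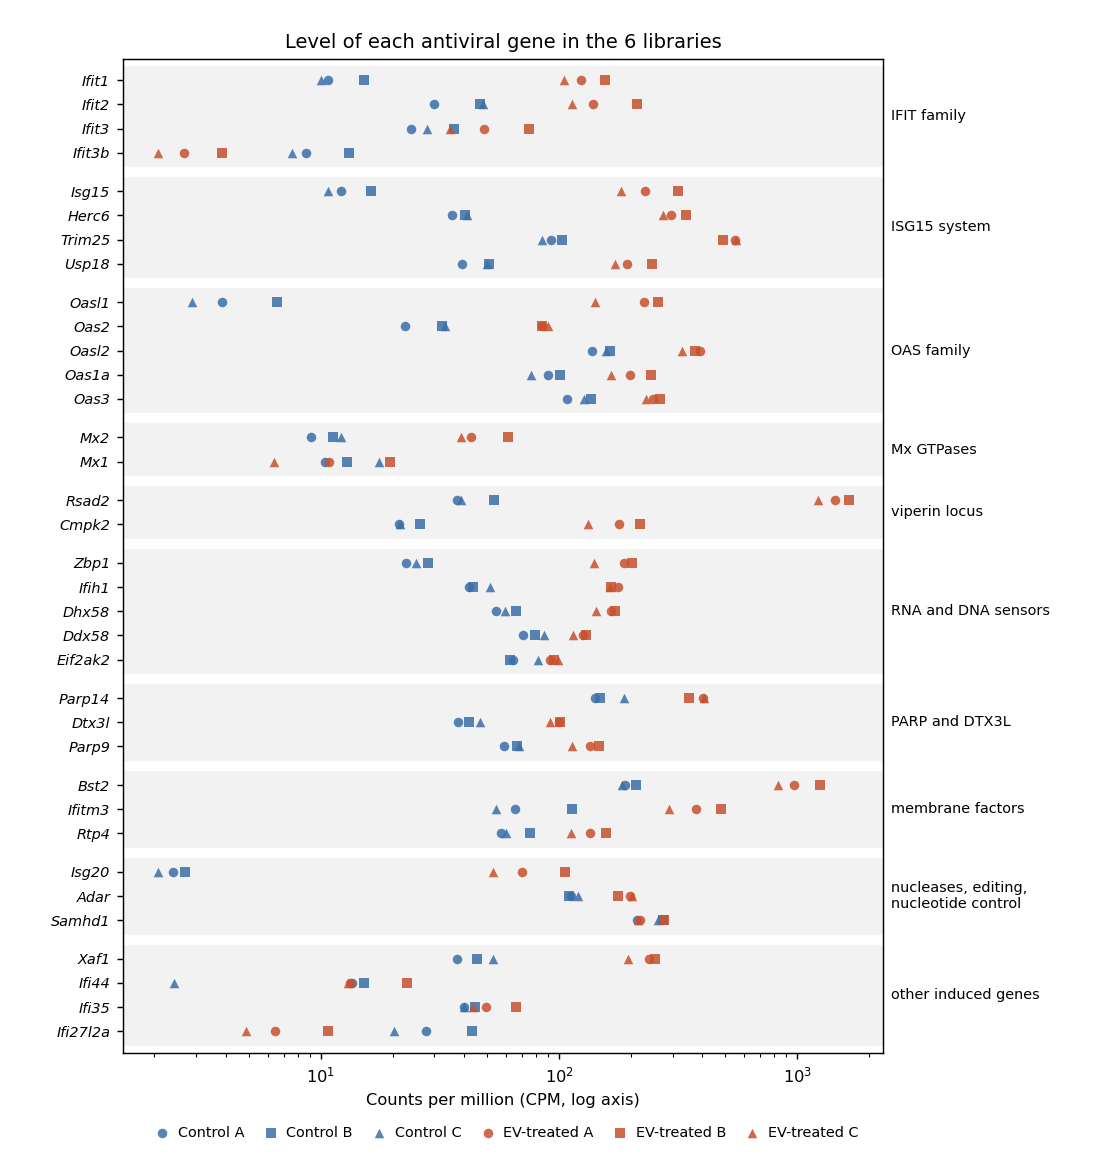
Level of each of the 35 genes in every library, in CPM on a log axis, with genes grouped by role (Control blue, EV-treated orange, symbols for A, B and C). The EV-treated points lie to the right of the control points in 28 genes and to their left in Ifit3b and Ifi27l2a.

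The EV-treated libraries mostly kept an order across the genes, and the control libraries did so in part. EV-treated B was the highest of its group in 28 of the 35 genes and EV-treated C the lowest in 30, where each of these was so in 38.7% and 37.8% of all entries. In the control group, B was the highest in 22 genes (32.8% of all entries), while A was the highest in 0 and the lowest in 21. EV-treated B and Control B were each the highest of their group in most of the genes, so genes are not replicates of each other.

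IFIT1 binds viral RNA that lacks host cap modifications, and the genes of the IFIT family lie together on chromosome 19. Ifit1 (chr19:34640871-34650009) stood at 10.7, 15.2 and 10.05 CPM in the control libraries and at 123, 156 and 105 CPM in the EV-treated libraries. Its groups lay far apart, at a log2 change of 3.42 (SE 0.20, adjusted p = 4.43e-07). Ifit2 rose by 1.90 (SE 0.25, adjusted p = 9.87e-05) and Ifit3 by 0.84 (SE 0.25, adjusted p = 0.0147) on the log2 scale. The Ifit3 groups overlapped, since EV-treated C (35.0 CPM) was below Control B (36.2 CPM), and without Control A its call was lost (0.70, adjusted p = 0.0545), as it was with library totals in place of TMM (0.46, adjusted p = 0.119).

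Ifit3b, the close copy of Ifit3, went the other way. It stood at 8.67, 13.1 and 7.53 CPM in control and at 2.66, 3.85 and 2.06 CPM in EV-treated libraries, a log2 change of -1.77 (SE 0.27, adjusted p = 2.63e-04), and every EV-treated library was below every control library. Ifit3 and Ifit3b are uncertain as single genes: 18.5% of the 150-base windows of the Ifit3 transcript and 16.0% of those of Ifit3b occur in the other. How reads that fit both were assigned is not given in the sources used here.

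ISG15 is a ubiquitin-like protein that is joined to other proteins and also secreted. Isg15 (chr4:156199424-156200818) went from 12.1, 16.3 and 10.7 CPM to 229.9, 315 and 182 CPM, a log2 change of 4.22 (SE 0.24, adjusted p = 3.42e-07). The lowest EV-treated library was far above the highest control library. All 4 genes of its system rose. Herc6, the ligase that joins ISG15 to its targets in mice, was read from an entry that joins it with 4930533I22Rik and Gm45193. That entry stood at 35.4, 40.3 and 41.2 CPM in control and at 295, 340.1 and 274 CPM in EV-treated libraries, a log2 change of 2.96 (SE 0.13, adjusted p = 5.92e-08). With the bins split by gene, Herc6 alone gave 2.94. Of the windows of its transcript, 17.9% also occur in Gm45193. Trim25, a ubiquitin ligase that aids RIG-I, rose by 2.50 (SE 0.12), and Usp18, the protease that removes ISG15 and also blocks the interferon receptor, by 2.13 (SE 0.16).

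OAS enzymes make 2′-5′ oligoadenylates on sensing double-stranded RNA, which switch on RNase L. All 5 genes of the family rose, and Oasl1, an OAS-like protein without that activity that limits Irf7 translation, had the highest log2 fold change of the 35 genes. Oasl1 (chr5:114923240-114937915) stood at 3.84, 6.56 and 2.88 CPM in control and at 227, 259.7 and 142 CPM in EV-treated libraries, a log2 change of 5.57 (SE 0.36, adjusted p = 6.90e-07). The other 4 rose by 1.005 to 1.56, in the order Oas2, Oasl2, Oas1a and Oas3, and their groups did not overlap. Oas1a shares 32.4% of its 150-base windows with Oas1g, so its log2 fold change of 1.19 is uncertain as the value of a single gene.

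The Mx proteins are GTPases that trap viral nucleocapsids, and 1 of the 2 genes was called. Mx2 rose, from 9.13, 11.3 and 12.1 CPM to 42.9, 61.1 and 38.9 CPM (log2 fold change 2.13, SE 0.19, adjusted p = 5.69e-06). Mx1 (chr16:97447035-97462907) stood at 10.4, 12.8 and 17.5 CPM in control and at 10.8, 19.6 and 6.38 CPM in EV-treated libraries. Its groups overlapped, with EV-treated libraries as both the highest and the lowest of the 6 (log2 fold change -0.15, SE 0.35, adjusted p = 0.717), and the sign of the difference changed without Control C (0.055) or without EV-treated C (0.14). Whether the 2 genes differ in their change was not tested.

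Rsad2 and Cmpk2 are neighbours on opposite strands of chromosome 12 and both act on nucleotides: viperin, the product of Rsad2, makes a chain-terminating nucleotide from CTP, and CMPK2 is a mitochondrial nucleotide kinase. Rsad2 (chr12:26442753-26456452) went from 37.5, 53.1 and 38.8 CPM to 1439.5, 1645 and 1229 CPM (log2 fold change 5.06, SE 0.20, adjusted p = 3.36e-08). Cmpk2 (chr12:26469204-26479835) went from 21.3, 26.0 and 21.4 CPM to 178, 219 and 133 CPM (log2 fold change 2.95, SE 0.19, adjusted p = 6.63e-07). In both genes EV-treated B was the highest and EV-treated C the lowest library of their group.

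All 5 sensors of nucleic acid rose, by 0.45 to 2.80 on the log2 scale. Zbp1, which senses Z-form nucleic acid and can start necroptosis, rose most: it stood at 22.7, 28.2 and 25.2 CPM in control and at 187, 203 and 139.6 CPM in EV-treated libraries (log2 fold change 2.80, SE 0.16, adjusted p = 3.41e-07). Of the RIG-I-like receptors, which detect viral RNA in the cytosol, Ifih1 (MDA5) rose by 1.89 (SE 0.11), Dhx58 (LGP2) by 1.42 (SE 0.12) and Ddx58 (RIG-I itself) by 0.64 (SE 0.11, adjusted p = 6.15e-04). Eif2ak2, which encodes PKR, the kinase that halts translation on double-stranded RNA, rose by 0.45 (SE 0.12, adjusted p = 0.00868). The calls of the last 2 depended on the scaling, with values of 0.27 (adjusted p = 0.0629) for Ddx58 and 0.09 (adjusted p = 0.594) for Eif2ak2 under library totals alone. Without Control A, Eif2ak2 stood at 0.38 (adjusted p = 0.0513).

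Parp9, Parp14 and Dtx3l encode ADP-ribosyltransferases and the ubiquitin ligase partner of PARP9, and they lie next to each other on chromosome 16. Parp14 went from 142, 148 and 187 CPM to 404, 352 and 405 CPM, a log2 change of 1.28 (SE 0.14). Dtx3l went from 37.8, 41.8 and 46.4 CPM to 99.7, 100.5 and 91.8 CPM, a log2 change of 1.21 (SE 0.11). Parp9 went from 58.7, 66.3 and 67.9 CPM to 135, 147 and 114 CPM, a log2 change of 1.04 (SE 0.12). All 3 rose and none of their groups overlapped (highest edgeR adjusted p of the 3 = 4.92e-05). Exons of Dtx3l and Parp9 overlap on opposite strands, and the shared bins held 8.02% of the Dtx3l counts and 7.64% of the Parp9 counts. Their strands could not be told apart there, since the strand setting of the counting is not given in the sources used here.

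Bst2, or tetherin, holds budding virions at the cell surface, and Ifitm3 blocks their fusion in endosomes. They had the highest levels per exon length of the 35 genes in both groups: Bst2 went from a mean of 216 to 1125 CPM per kilobase and Ifitm3 from 114 to 564. Bst2 (chr8:71534255-71537456) stood at 189, 211 and 184 CPM in control and at 971, 1246 and 829 CPM in EV-treated libraries (log2 fold change 2.38, SE 0.16, adjusted p = 1.20e-06). Ifitm3 (chr7:141009586-141010770) stood at 65.5, 113 and 54.2 CPM in control and at 376, 480.1 and 291 CPM in EV-treated libraries (log2 fold change 2.30, SE 0.28, adjusted p = 6.18e-05). In both genes the groups did not overlap and library B was the highest of each group. Rtp4, a receptor transporter protein that restricts flaviviruses, was read from an entry joined with Gm45338. It went from 56.9, 75.3 and 59.7 CPM to 135, 158 and 112 CPM (log2 fold change 1.08, SE 0.15, adjusted p = 1.76e-04), and 1.10 with the bins split by gene.

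Isg20 (chr7:78913424-78920396), an exonuclease that degrades single-stranded RNA, had the lowest control level per exon length of the 35 genes, at a mean of 1.28 CPM per kilobase, and reached 40.9. It stood at 2.39, 2.69 and 2.07 CPM in control and at 69.9, 106 and 52.9 CPM in EV-treated libraries (log2 fold change 4.998, SE 0.26, adjusted p = 2.04e-07). Rsad2 moved from rank 20 to rank 3 per exon length, at 9.97 and 332 CPM per kilobase, and Ifi27l2a from rank 3 to rank 31, at 65.5 and 15.8. Over the 35 genes the median level was 11.2 CPM per kilobase in control and 35.2 in EV-treated libraries.

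Adar (chr3:89715022-89753446) encodes ADAR1, the enzyme that edits adenosine to inosine in double-stranded RNA and so keeps self RNA from being sensed. Its RNA is started at interferon-inducible and at constitutive sites, and its exon bins were not assigned to either kind here. It stood at 112, 110.1 and 119.6 CPM in control and at 198, 177 and 202 CPM in EV-treated libraries, without overlap (log2 fold change 0.75, SE 0.10, adjusted p = 1.31e-04). Bins that overlap Chrnb2 on the other strand held 29.4% of the Adar counts, with log2 ratios of mean CPM of 0.80 to 0.93. Their part in the value of Adar was not tested.

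Samhd1 (chr2:157097533-157135265), which lowers the nucleotide supply for reverse transcription, was among the highest of the 35 genes in control and did not pass the test. It stood at 213, 274 and 261 CPM in control and at 219, 276 and 214 CPM in EV-treated libraries, and the groups overlapped (log2 fold change -0.08, SE 0.14, adjusted p = 0.655). Its value depended on the bins and the scaling used: it was -0.45 (adjusted p = 0.0182) with library totals alone, -1.59 for the single bin with the most counts and 0.05 (adjusted p = 0.767) with the last 3′ bin left out.

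The 4 remaining genes are known mainly by their induction by interferon, and 1 rose, 1 fell and 2 were not called. Xaf1, a partner of the apoptosis inhibitor XIAP, rose from 37.4, 45.3 and 52.9 CPM to 239.7, 254 and 194 CPM (log2 fold change 2.34, SE 0.16, adjusted p = 1.04e-06). Ifi35 (chr11:101448407-101458698) stood at 40.0, 44.4 and 39.7 CPM in control and at 49.4, 65.8 and 43.6 CPM in EV-treated libraries. EV-treated C lay below Control B, and Ifi35 was not called (0.35, SE 0.15, adjusted p = 0.0597), although it was called without EV-treated C (0.46, adjusted p = 0.0139). With library totals alone it was at -0.021. Of its counts, 20.0% lay in bins that overlap Gm11626.

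Ifi44 (chr3:151730922-151749960) stood at 13.5, 15.1 and 2.42 CPM in Control A, B and C and at 13.2, 23.0 and 13.0 CPM in EV-treated libraries. Control C was far below the other 5 libraries, which overlapped. The log2 fold change was 0.67 (SE 0.53, adjusted p = 0.289), and 0.18 (adjusted p = 0.545) without Control C. Ifi27l2a (chr12:103442167-103443680), a small mitochondrial membrane protein gene, was the other gene that fell. It stood at 27.7, 43.0 and 20.3 CPM in control and at 6.39, 10.8 and 4.86 CPM in EV-treated libraries (log2 fold change -2.05, SE 0.33, adjusted p = 3.77e-04), and every EV-treated library was below every control library.

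**Figure D2:**
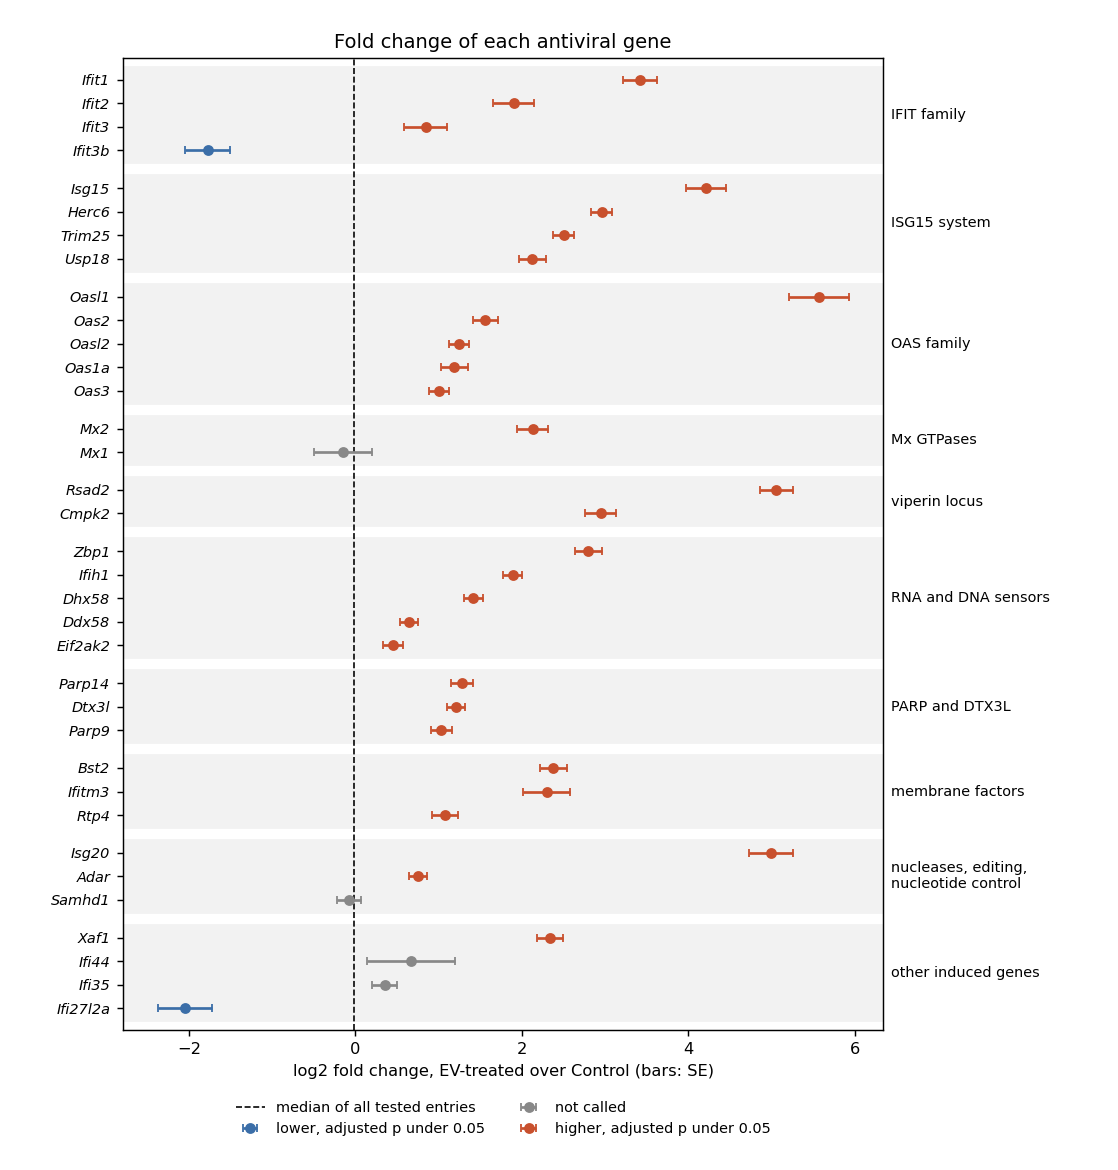
Log2 fold change of each of the 35 genes, EV-treated over Control, with its SE as bars, genes grouped by role, and the median of all 16605 tested entries (-0.02) as a dashed line. The 29 genes that rose span 0.45 (Eif2ak2) to 5.57 (Oasl1), and Ifit3b and Ifi27l2a lie on the lower side at -1.77 and -2.05.

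The genes with and without ISRE letters covered overlapping ranges of change. The 12 genes with ISRE letters had a median log2 fold change of 1.54, from -1.77 (Ifit3b) to 5.06 (Rsad2), and 11 of them rose. The 13 genes with a listed promoter and no such letters had a median of 1.90, from -0.08 (Samhd1) to 5.57 (Oasl1), and 10 of them rose. Ifit3 and Ifit3b, whose promoter stretches differ at 2 of 168 aligned positions with gaps left out, had log2 fold changes of 0.84 and -1.77. Both are uncertain as values of single genes, since the 2 share sequence, and the call of Ifit3 depended on the scaling.

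Exon bins were compared within genes, to ask whether a part of a gene moved unlike the rest. Of the 583 bins of the 35 genes, 503 were tested and 26 were called in usage (edgeR's diffSpliceDGE), in 16 genes, a share close to the 4.21% of all bins tested that were called. Of the 26, 22 were lower in usage and 4 higher. By the GENCODE vM21 annotation on GRCm38, 11 lie in 5′ untranslated sequence, 3 in 3′ untranslated sequence, 2 (both of Trim25) in coding sequence and 10 in transcripts with no coding sequence.

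Samhd1 held a called bin at its 3′ end. The last bin (chr2:157097533-157099400, minus strand), the end of the 3′ untranslated region of Samhd1-201, stood at 31.8, 39.0 and 37.6 CPM in control and at 9.60, 12.1 and 12.3 CPM in EV-treated libraries. Its share of the counts of Samhd1 was 14.9%, 14.2% and 14.4% in control and 4.39%, 4.39% and 5.77% in EV-treated libraries. The change in usage was -1.60 (log2, adjusted p = 2.02e-09), so this 3′ end was lower while the gene as a whole was not called. A neighbouring bin (chr2:157099504-157101320), part of the transcript Samhd1-204, was higher in usage by 1.07 (adjusted p = 5.65e-05), at 3.05, 4.37 and 5.78 CPM in control and 6.26, 8.61 and 11.5 CPM in EV-treated libraries. A further bin (chr2:157129917-157130057), found in a transcript with no coding sequence, had a usage of -1.52 (adjusted p = 0.00113).

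In Adar the first 5′ bin (chr3:89715022-89715150), untranslated sequence of Adar-202, was lower although the gene rose. It stood at 0.638, 0.520 and 0.589 CPM in control and at 0.0888, 0.158 and 0.320 CPM in EV-treated libraries, from 66 to 111 counts and from 11 to 41 counts. Its share of the counts of Adar was 0.569%, 0.472% and 0.492% in control and 0.0449%, 0.0896% and 0.159% in EV-treated libraries, a change in usage of -2.36 (adjusted p = 1.84e-11). The bin of the later start (chr3:89730748-89730838), where Adar-201, Adar-203, Adar-204 and Adar-205 have exons, stood at 1.14, 0.945 and 1.14 CPM and then at 2.65, 2.44 and 2.74 CPM, and its usage was not called (0.53, adjusted p = 0.0984). The 21 other tested bins of Adar had usage values of -0.95 to 0.18 and none was called.

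**Figure D3:**
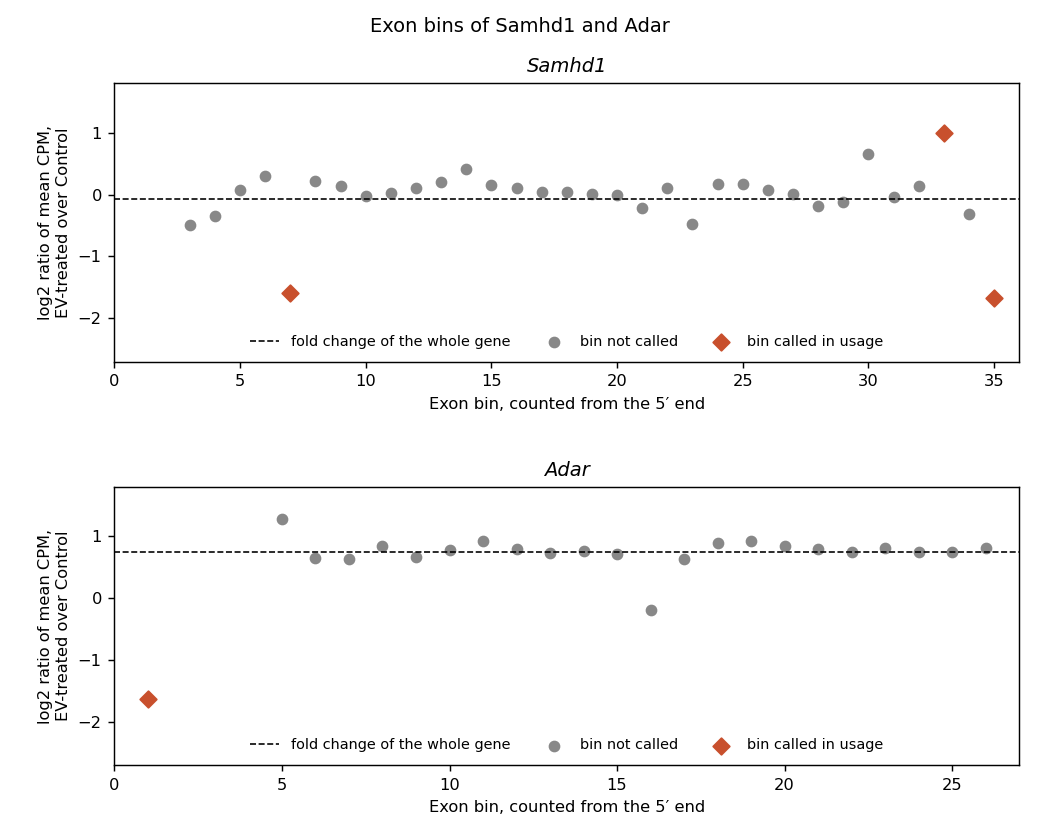
Log2 ratio of mean CPM, EV-treated over Control, for each tested exon bin of Samhd1 and Adar, by its place from the 5′ end, with the log2 fold change of the whole gene dashed (-0.08 and 0.75). The last bin of Samhd1 lies at -1.67 and the first bin of Adar at -1.62, while most other bins lie near the dashed lines.

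Outside Samhd1 and Adar, most called bins carried few counts. The first 21 bases of Rsad2 had 7 to 12 counts in each control library, against 21 to 37 after EV treatment, and a usage of -3.26 (adjusted p = 2.56e-04), in a gene that rose 33.3-fold. A 3′ bin of Ddx58 (chr4:40204066-40204848), in a transcript with no coding sequence, went from a mean of 1.85 to 1.11 CPM while the gene rose, with a usage of -1.40 (adjusted p = 1.22e-09). The second 5′ bin of Ifit2 went from 43, 55 and 56 counts to 31, 23 and 32 counts, with a usage of -2.49 (adjusted p = 0.00245). The 4 called bins of Rtp4 hold exons of Gm45338, the gene joined to it, and had usages of -5.85 to -3.45. All but 1 of them (chr16:23534580-23534799) also lie in 5′ untranslated sequence of Rtp4-202, so the 2 genes cannot be told apart there. Each library had 10 to 21 counts per bin in control and 0 to 4 after EV treatment. The bin of Parp14 that was higher in usage (0.95, adjusted p = 0.00336) lies in a transcript with a retained intron, Parp14-203.

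The other genes of the interferon pathway, which make, sense or limit the signal, moved in both directions. Of 41 such genes, 40 entries were found (Ifnar2 and Il10rb share 1 joined entry) and 34 were tested. Of the 34, 18 rose, 13 fell and 3 (Irf8, Cgas and Tlr3) were not called, with a median log2 fold change of 0.37. Over all entries tested, 33.0% rose and 33.5% fell, and the counts by role below are to be read beside these shares. RNA of the interferon genes on this list was near the detection limit. Ifnb1, the gene of interferon beta, had 4, 0 and 0 counts in control and 9, 25 and 14 counts in EV-treated libraries, too few to be tested, and Ifnk had 0, 2 and 4 against 2, 8 and 18 counts. Ifna2, Ifna4, Ifne and Ifng had 0 counts in all 6 libraries, which allows up to 3 counts per library and covers counting error only. RNA at other times after treatment was not analysed here.

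Of the receptors, Ifngr1, which binds interferon gamma, fell from 81.4, 92.7 and 128 CPM to 44.1, 40.7 and 37.1 CPM (log2 fold change -1.31, SE 0.17, adjusted p = 7.48e-05). Ifngr2 rose by 0.62 (SE 0.11, adjusted p = 7.34e-04). Of the type I receptor, Ifnar1 stood at 0.33 (SE 0.11, adjusted p = 0.0220) and the entry that joins Ifnar2 with Il10rb at 0.40 (SE 0.12, adjusted p = 0.0130). With the bins split by gene, Ifnar2 alone rose by 0.76 (adjusted p = 3.19e-04), while Il10rb alone was at -0.087 and not called (adjusted p = 0.509). Ifnar1 and the joined entry were called higher, and both calls were lost with upper-quartile scaling (adjusted p = 0.111 and 0.0501), with no filter on low counts (0.132 and 0.0596), without Control B (0.115 and 0.0502) and with library totals alone, where Ifnar1 changed sign (-0.028). Ifnar1 was also not called without EV-treated A (adjusted p = 0.0990) or EV-treated C (0.0743), nor the joined entry without Control C (0.0503) or from its single bin with the most counts (-0.063).

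Of the kinases and transcription factors, 6 rose and 4 fell of 11. Jak2, a kinase of the gamma interferon and cytokine receptors, rose from 39.4, 36.2 and 39.8 CPM to 226, 228 and 252 CPM (log2 fold change 2.61, SE 0.11). Irf7, which amplifies interferon production, rose from 202, 304 and 166 CPM to 1309, 1664 and 963 CPM (2.55, SE 0.26, adjusted p = 1.85e-05). Stat2, which acts downstream of the type I receptor, rose by 1.07 (SE 0.11), and its partner Irf9, in an entry joined with Rnf31, by 0.77 (SE 0.10). Irf9 was named after its value was seen. Irf2, which represses interferon-stimulated promoters, stood at -1.51 (SE 0.11), Irf5 at -1.44 (SE 0.11) and the receptor kinase Tyk2 at -0.67 (SE 0.09), all called lower.

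Of the adaptors and kinases that link sensors to interferon production, 4 rose and 5 fell of 11. Ticam1, the adaptor of TLR3 and TLR4, rose by 1.23 (SE 0.11), its kinase Tbk1 by 1.04 (SE 0.10) and Traf3 by 0.92 (SE 0.10). Tmem173, which encodes STING, fell from 17.5, 18.0 and 18.9 CPM to 3.80, 3.70 and 4.54 CPM (log2 fold change -2.18, SE 0.13). Tlr7, a receptor of single-stranded RNA, stood at -1.65 (SE 0.14) and Mavs, the adaptor of the RIG-I-like receptors, at -0.77 (SE 0.10). The receptors of cytosolic RNA rose while their adaptor and the DNA adaptor STING fell.

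Of the 7 brakes on the signal, 4 rose and 3 fell. Socs3 and Socs1, inhibitors of JAK kinases, rose by 7.29 (SE 0.14) and 5.001 (SE 0.14), and Ptpn2, a phosphatase of JAK and STAT proteins, by 2.32 (SE 0.11). Socs1 went from 0.843, 0.953 and 0.934 CPM to 27.0, 27.7 and 32.9 CPM. The phosphatase genes Ptpn6 and Ptpn1 stood at -1.42 (SE 0.12) and -0.86 (SE 0.12), and Pias1, an inhibitor of STAT proteins, at -0.48 (SE 0.11), all called lower.

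**Figure D4:**
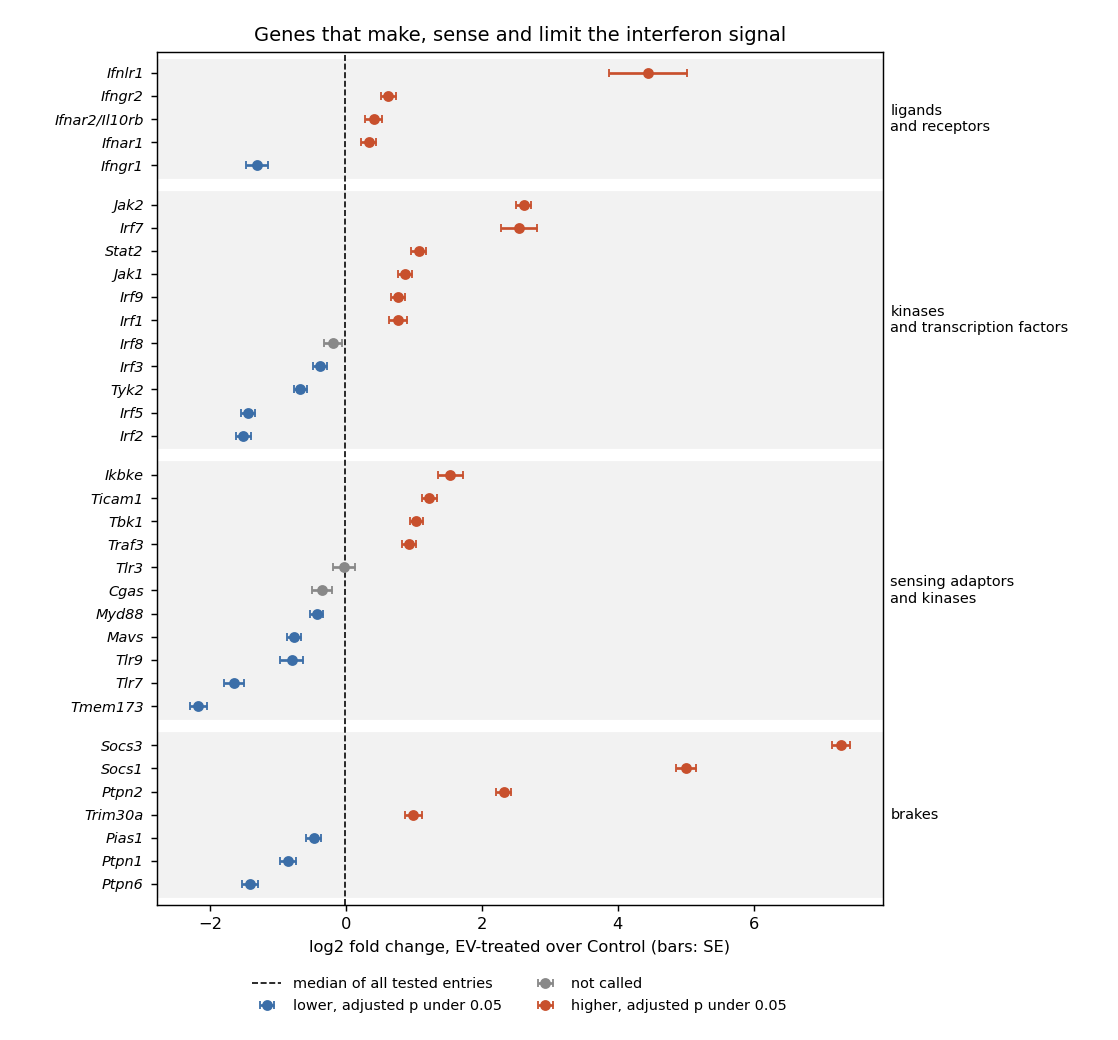
Log2 fold change, EV-treated over Control, with its SE as bars, of the 34 tested entries of the interferon pathway, by role, with the median of all tested entries (-0.02) dashed. Both directions occur in each of the 4 roles, from -2.18 (Tmem173) to 7.29 (Socs3).

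Markers of other cell types moved between the groups, and their part in the antiviral genes' values was not tested. The summed CPM of 5 neural stem cell markers lay between 46.5 and 83.3 in control, and ranged from 5.95 up to 7.88 in EV-treated libraries, with Nes lower, Egfr and Prom1 higher, and Sox2 near 0. That of 6 astrocyte markers was 10.9 to 15.5 and then 88.3 to 124, with Slc1a2, Slc1a3 and Gja1 higher, Aldh1l1 lower, and Gfap and Aqp4 near 0. That of 8 oligodendrocyte and precursor markers was 218 to 444 and then 35.4 to 47.5, with Cspg4 and Mbp lower and Pdgfra higher. These sums were carried by few genes and do not describe whole lists. Nes went from a mean of 68.5 to 2.47 CPM and Cspg4 from 291 to 24.3. Slc1a2 went from 0.0952 to 74.8 CPM and Gja1 from 0.0943 to 29.1, while Aldh1l1 went from 13.4 to 1.72. Slc1a3 was low in both groups, at 0.0881 and 0.337 CPM. Neuronal markers summed to at most 0.622 CPM, and 5 markers of lymphocytes and of plasmacytoid dendritic cells, which are major makers of interferon, to at most 0.0473 CPM. The 6 endothelial and stromal markers summed to 8.05 to 18.9 and then 7.52 to 11.3 CPM, with 3 higher and 2 lower.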

How the data were processed

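RNA of 3 Control and 3 EV-treated samples was extracted with Trizol, selected for poly(A) and made into libraries with the NEBNext Ultra kit, per the labels' protocols, and sequenced as 150-base paired reads (56000000 to 84000000 reads a sample by the series text). The submitters' processing notes name the build GRCm38 and the tools Trimmomatic 0.36, STAR, Subread and DESeq2. Tool settings, strand and annotation release: not given in the sources used here. The deposited values are raw counts per exon bin (425461 bins), per the file headers.

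Counts were summed per gene entry. A read over several bins may be counted in each, so sums are not numbers of distinct reads and exceed the stated reads. Entries that join genes with overlapping exons (1194 of 48005) held 11.3% to 16.5% of the counts. Symbols were found for 49298 of 49644 identifiers. After filterByExpr, 16605 entries were scaled by TMM (factors 1.09 to 1.16 in Control, 0.855 to 0.921 in EV-treated) and compared by the quasi-likelihood test of edgeR 4.0.16 in R 4.3.3 (2-sided, without covariates, Benjamini-Hochberg adjusted p over all entries, threshold 0.05). An SE is the log2 fold change over the root of its F statistic. CPM values use TMM library sizes, and the common biological coefficient of variation was 0.174. Bin usage was tested with diffSpliceDGE over 198361 bins. Gene and bin tests were also run on simulated counts with far fewer changed genes than were called here and with independent bins. That run cannot vouch for the scaling or for calls in bins with few counts. Replicates differed beyond counting noise in every pair, with a chi-square of 74.1 or more per degree of freedom.

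The genes, their roles, the pathway and marker lists and the tests were chosen with earlier results of these data known. Some genes of the pathway and marker lists are not reported here, and the lists' counts and sums leave them out. Values per library are given for the 8 largest changes, genes called lower or not called, the 3 highest per exon length in either group, joined entries, and roles otherwise unrepresented. Of the pathway list, up to 3 rising and 3 falling genes per role with the smallest p and a mean log2 CPM of at least 1 are named. Up to 2 bins per gene with the smallest p and the bins of Adar could be named, and not all are. Mx2, Xaf1, Ifnb1, Ifnk and the third bin of Samhd1 were added after their values were seen. Shared sequence was counted as 150-base windows of GENCODE vM21 transcripts found in another gene. Tried as alternatives were other scalings (RLE, upper-quartile, library totals), no filter, a stricter filter (50 counts in 3 libraries), DESeq2 1.42.0, limma-voom (limma 3.58.1), a replicate block, each library left out, the single bin with the most counts and, chosen after seeing the data, joined entries split by gene and the last 3′ bin left out. Tables and plots used Python 3.11.15 with pandas 2.3.3 and matplotlib 3.10.9.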

Additional observations from a re-analysis of the deposited data

How the results depend on the processing

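Over the 17 alternatives, 26 to 30 of the 35 genes rose and 2 or 3 fell. Of 595 values of single genes, 577 kept their direction and their side of the threshold, 6 lost a call (Ifit3, Ddx58 and Eif2ak2), 8 gained one (Ifi35, Samhd1 and Ifi44) and 4 changed sign, all in genes that were not called, and 28 genes kept both under all 17 alternatives. The 4 were Mx1 without Control C (0.055) and without EV-treated C (0.14; range over the 6 libraries left out -0.66 to 0.14), Samhd1 with the last 3′ bin left out (0.051) and Ifi35 with library totals alone (-0.021). Leaving out 1 library at a time gave 27 to 30 risen genes, 2 fallen genes and a median of 1.34 to 1.48. Library totals alone lowered the median log2 fold change of the 35 genes to 1.05, and that of all entries to -0.38, where TMM gave -0.02. Of all calls 34.0% were then higher, against 49.7% with TMM. With upper-quartile scaling the median of all entries was -0.14. Ifi35 was called with RLE scaling (adjusted p = 0.0405), the stricter filter (0.0426) and DESeq2 (0.0324), and Ifi44 with no filter (0.59, adjusted p = 4.13e-04). Eif2ak2 was not called from its single bin with the most counts (0.12, adjusted p = 0.419).

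With the stricter filter 17 bins of the 35 genes were called in usage in place of 26, of 439 tested, and leaving out 1 library gave 20 to 33. Of the pathway genes 15 to 19 rose and 12 to 15 fell. Ifnar1 reversed with library totals alone (-0.028), the joined entry of Ifnar2 and Il10rb with the single bin with the most counts (-0.063), and Il10rb with joined entries split by gene (-0.087), where Ifnar2 alone rose by 0.76 (adjusted p = 3.19e-04). Tlr3, which was not called, changed sign without Control C (0.11), EV-treated A (0.016) or EV-treated C (0.010), in a range of -0.17 to 0.11 over the 6 libraries left out. The causes were not tested.

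The letters A, B and C were not taken as pairs, since same-letter correlations of deviations from the group means were 0.04, 0.17 and 0.21, although every library correlated best with its own letter. With the letter as a replicate block, 30 genes rose, 2 fell, the median was 1.42, 18 pathway genes rose and 13 fell, 37 bins were called, and Ifi35 was called higher (0.33, adjusted p = 0.0179).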

Other observations

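Genes of the same name families that are not among the 35 were looked at after the values above were seen. Oas1g, which shares sequence with Oas1a, stood at 28.9, 37.6 and 28.2 CPM in control and at 56.6, 74.5 and 50.9 CPM in EV-treated libraries (log2 fold change 0.94, adjusted p = 6.61e-04 by edgeR). Oas1b rose by 1.39 (adjusted p = 2.62e-05), while Oas1c, at 4.66 to 5.90 CPM in control, was not called (-0.22, adjusted p = 0.356). The Ifitm2 entry, joined with Ifitm5 and Gm45717, rose by 1.29 (adjusted p = 1.75e-04). Ifit1bl2 was called higher (2.94, adjusted p = 2.56e-06), and 1.24% of the 150-base windows of the Ifit1 transcript occur in it. Isg20l2 was called lower (-0.49, adjusted p = 0.00964). Not all genes of these families are named here.

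Next to Ifi27l2a on chromosome 12, Ifi27 stood at 62.1, 60.8 and 51.7 CPM in control and at 82.5, 81.8 and 82.4 CPM in EV-treated libraries, and was called higher (0.50, adjusted p = 0.00184). Ifi44l, the neighbour of Ifi44, stood at 2.07 and 2.02 CPM in Control A and B and at 0 in Control C and in all 3 EV-treated libraries, and was not tested. Control C was thus the lowest control library for both Ifi44 and Ifi44l.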
